A study of Mus musculus with 22 samples.

Results

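Caudal Epiblast is 1 of the cell type names that the authors of the study gave to clusters of cells from mouse gastruloids. Its members were taken here by that name in the authors' deposited cell table, and they numbered 3586 of 77674 cells on 18 lanes of a droplet device. A further 9 cells of that table had no barcode among the deposited counts and are in neither number. Gastruloids are cultured aggregates of mouse embryonic stem cells in which germ layer derivatives and a body axis arise. In 3 experiments (MULTI-seq 1 to 3) the cells of each gastruloid received their own DNA barcode before pooling, so 1927 of the Caudal Epiblast cells could be traced to 1 of 136 gastruloids, the replicates used below. The gastruloids of a further experiment, 10X, carried no such barcodes. All groups shared 1 stem cell line (E14Tg2A), 300 cells seeded per well, 48 h of aggregation and a pulse of 3 µM CHIR99021, a GSK3 inhibitor that activates Wnt signalling. No genetic change is stated, and the groups differed only by experiment and by day of culture. MULTI-seq 3 held a pool of day 3 on 2 lanes, a pool of days 3.5 and 4 on 4 lanes and a pool of days 4.5 and 5 on 3 lanes. MULTI-seq 2 held days 4 and 4.5 in pool B (2 lanes) and pool C (2 lanes, without gastruloid calls), besides pools of days 3 and 3.5 that were not analysed here. MULTI-seq 1 held day 5 (3 lanes), and the 10X experiment held 1 lane each of days 3 and 4.

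In the embryo, the caudal epiblast lies beside and behind the primitive streak and holds the progenitors from which the trunk and tail are built, both their spinal cord and their paraxial mesoderm. Wnt and FGF ligands made there and in the streak keep these cells as progenitors, and retinoic acid from the forming somites opposes them. T (Brachyury), Cdx2 and Nkx1-2 are transcription factors used to recognise these cells, and Fst encodes follistatin, a secreted inhibitor of activin and related ligands. Hox genes are switched on there in the order of their place in the clusters, and cells that carry both T and Sox2 are taken as neuromesodermal progenitors (NMPs).

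The promoters of the marker genes are shown because each culture had received a Wnt agonist. Printed are the 250 bases before the RefSeq start of each gene (GRCm38.p6), which was found for 3 of the 4 markers. Capitals mark matches on either strand to CTTTGA, a core of the sites bound by TCF and LEF, the DNA-binding partners of beta-catenin.
T, chr17:8434173-8434422, plus strand: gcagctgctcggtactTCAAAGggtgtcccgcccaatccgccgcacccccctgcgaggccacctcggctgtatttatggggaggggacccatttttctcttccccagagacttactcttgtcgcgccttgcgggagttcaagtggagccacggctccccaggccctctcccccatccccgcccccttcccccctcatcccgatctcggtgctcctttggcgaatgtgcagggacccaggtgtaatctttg
Nkx1-2, chr7:132599638-132599887, minus strand: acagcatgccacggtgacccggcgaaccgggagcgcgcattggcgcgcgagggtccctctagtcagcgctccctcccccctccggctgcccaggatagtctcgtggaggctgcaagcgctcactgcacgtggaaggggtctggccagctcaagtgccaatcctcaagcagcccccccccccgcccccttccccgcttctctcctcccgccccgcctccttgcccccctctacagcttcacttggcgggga
Cdx2, chr5:147307250-147307499, minus strand: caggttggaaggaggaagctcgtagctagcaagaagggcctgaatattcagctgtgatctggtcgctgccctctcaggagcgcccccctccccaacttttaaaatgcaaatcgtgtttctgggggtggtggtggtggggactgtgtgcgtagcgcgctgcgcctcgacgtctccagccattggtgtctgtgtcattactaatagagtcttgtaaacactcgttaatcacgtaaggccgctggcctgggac
The T promoter held 1 match, on the strand opposite to the gene and 234 bases before its start. The other two windows held none, and 13.8% of 32851 promoters of this length held at least 1.

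Levels are given as CPM, the unique molecular identifiers (UMIs) of a gene divided by the sum of all UMIs and multiplied by 1e6, over the Caudal Epiblast cells of a gastruloid. The name was checked against its markers in MULTI-seq 3, over types with at least 10 cells in a gastruloid. At day 3.5 the Caudal Epiblast of 15 gastruloids had a mean of 442 CPM of T, 212 of Nkx1-2, 384 of Cdx2 and 1125 of Fst. None of the 4 genes was highest there. Primitive Streak cells had more T (690 CPM) and Fst (1514 CPM), and Caudal Neurectoderm had more Nkx1-2 (237 CPM) and Cdx2 (404 CPM). The combination set the type apart from each of these: Primitive Streak had 145 CPM of Nkx1-2 and 239 of Cdx2, and Caudal Neurectoderm had 51.0 CPM of T. At day 4 the type had 436 CPM of T, 147 of Nkx1-2, 377 of Cdx2 and 579 of Fst. NMPs had 420 CPM of T, 116 of Nkx1-2 and 459 of Cdx2, but 128 of Fst. Again none of the 4 genes was highest in Caudal Epiblast. Notochord had 804 CPM of T, Early Spinal Cord 166 of Nkx1-2 and Primitive Streak 734 of Fst. The cells had been named from their expression, so these levels are a description, and tests between days within the type hold for cells that kept the name.

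The lanes held 64703013 to 307883815 UMIs, and the median UMI count of a Caudal Epiblast cell was 7394 to 39507 per lane. In those cells 1.73% to 2.28% of UMIs were mitochondrial at the median of a lane in MULTI-seq 3, and 4.44% to 6.36% in the other experiments. Cells without a gastruloid call entered no sum per gastruloid, and in the pool of days 3.5 and 4 they were 28.7% of Caudal Epiblast cells against 13.2% of all cells (in pool B of MULTI-seq 2, 10.8% against 3.52%). Barcode doublets, also left out, were 18.8% of Caudal Epiblast cells in the day 3 pool against 12.1% of all its cells, and 2.82% to 3.77% against 5.69% to 9.5% in the other pools where doublets were called. Across lanes, 732 cell barcodes occurred more than once. They covered 68 Caudal Epiblast cells, and at 1 of them both cells were Caudal Epiblast.

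The share of Caudal Epiblast among a gastruloid's cells was highest at day 3.5 and under 0.5% in each MULTI-seq 3 gastruloid at day 5. In MULTI-seq 3 the share at day 3 ran from 0.442% to 5.43% with a median of 2.97% (24 gastruloids, mean 3.05% ± 1.5 SD). At day 3.5 it ran from 3.74% to 34.2% with a median of 15.9% (16 gastruloids, mean 16.4% ± 8.18). At day 4 it ran from 1.54% to 12.8% with a median of 4.45% (16 gastruloids, mean 5.46% ± 3.82). Days 3.5 and 4 overlapped, yet each of the 16 gastruloids of day 4 was below the median of day 3.5. The share dropped by 10.97 percentage points (p = 2e-05, two-sided permutation test, the smallest p that 100000 resamples can give, 4e-05 adjusted over 4 share comparisons). The number of Caudal Epiblast cells recovered changed less, with 777 of 4679 cells at day 3.5 and 675 of 13750 at day 4. The median gastruloid held 288 and 854 cells in all.

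At day 4.5 the share was 1.19% ± 1.20 (SD, 16 gastruloids, from 0 to 4.10%), and 4 gastruloids held no such cell. By day 5 it was 0.0977% ± 0.147 (16 gastruloids, highest 0.441%), with none in 9 of them. That difference was -1.09 percentage points, with 16 of 16 below the earlier median (permutation p = 6e-05, adjusted p = 8e-05). The rise from day 3 to day 3.5 was 13.4 points (permutation p = 2e-05, adjusted p = 4e-05, 16 of 16 above the median of day 3), but the 2 days lay in different pools, so day and pool cannot be told apart.

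In MULTI-seq 2 the share at day 4 had a wide spread, over smaller gastruloids (5 of them with 60 to 92 cells, against at least 390 in each of day 4 in MULTI-seq 3). Its 11 gastruloids of day 4 ran from 1.59% to 19.6% with a median of 9.84% (mean 9.91% ± 7.59), in 2 sets: 5 of them lay at or below 3.33% and 6 at or above 9.84%. At day 4.5 its 12 gastruloids ran from 0 to 4.27% with a median of 2.87% (mean 2.68% ± 1.24). All 12 were below the median of day 4, and the drop was 7.22 points (permutation p = 0.0056, adjusted p = 0.0056). With at least 100 cells required per gastruloid, 6 gastruloids of day 4 remained and the mean drop was 4.30 points (permutation p = 0.194), while 8 of 11 gastruloids of day 4.5 lay above the median of day 4. In MULTI-seq 1 the share at day 5 was 0.329% ± 0.309 (24 gastruloids, none in 7 of them).

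**Figure D1:**
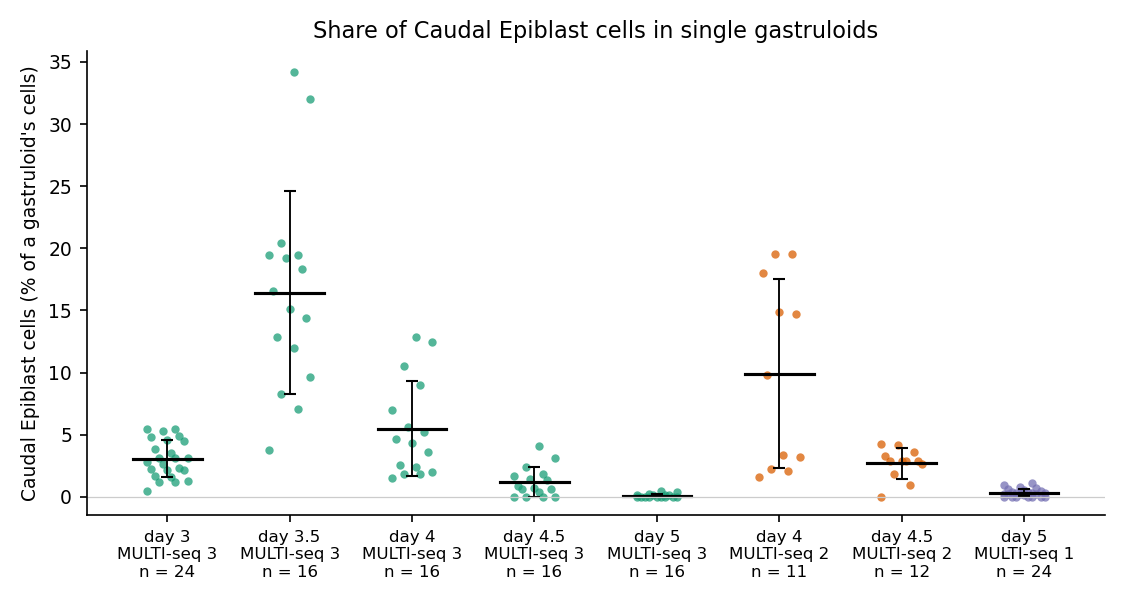
Caudal Epiblast cells as a percent of all cells of a gastruloid (y axis, linear) by day and MULTI-seq experiment (x axis). Each point is 1 gastruloid, and the black line and bar are the mean and SD. The 16 gastruloids of day 3.5 spread from 3.74% to 34.2%, and those of day 4 in MULTI-seq 2 form 2 sets.

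The authors also mapped each cell onto a reference of mouse embryos, which gives a second name for the same cells from the same expression values. Of the 3586 cells, 2698 (75.2%) mapped to caudal epiblast, 248 to intermediate mesoderm, 220 to NMPs, 193 to primitive streak and 124 to mesoderm-biased NMPs. In the other direction, Caudal Epiblast made up 35.0% of the cells mapped to the embryo's caudal epiblast, while Caudal Neurectoderm made up 19% and Primitive Streak 17.8%. The mapped name moved with the day. In MULTI-seq 3, cells mapped to primitive streak were 30.2% ± 18.7 (SD) of a gastruloid's Caudal Epiblast at day 3 (17 gastruloids), 2.62% ± 2.87 at day 3.5 (16) and 0.415% ± 0.900 at day 4 (16). Cells mapped to caudal epiblast were 69.8% ± 18.7, 89.1% ± 4.88 and 59.0% ± 14.3 at the same days. At day 4 the remainder went mainly to intermediate mesoderm (12.8% ± 8.61), mesoderm-biased NMPs (10.2% ± 6.19) and NMPs (9.23% ± 6.96), which had been 3.29%, 0.433% and 3.13% at day 3.5. Cells placed at embryonic stages after day 8 were 0% at day 3, 6.05% ± 5.77 at day 3.5 and 32.1% ± 10.6 at day 4. These values are descriptions without a test.

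Joint detection of T and Sox2, the 2 factors of NMPs, was counted after thinning each cell to 5000 UMIs, which left out 0 cells. Caudal Epiblast cells with UMIs of both were 15.1% ± 6.10 (SD) per gastruloid at day 3.5, from 5.56% to 24.1%, and 17.9% ± 6.10 at day 4, from 5.71% to 28.6% (15 gastruloids each). The 2 days overlapped over nearly their whole range, and the difference of 2.81 points did not pass (permutation p = 0.216, adjusted p = 0.216 over 2 gene pairs). Without lanes C or D it was 0.69 and 0.509 points, and with at least 20 cells 0.507. It was 2.05 points at 2000 UMIs (permutation p = 0.0209) and -2.14 points in unthinned cells, whose medians were 38466 UMIs at day 3.5 and 31131 at day 4. Joint detection of T and Nkx1-2 fell by 9.23 points, from 51.4% ± 9.41 to 42.2% ± 6.04 (permutation p = 0.00256, adjusted p = 0.00512), and 1 of 15 gastruloids of day 4 was above the median of day 3.5. At 2000 UMIs the difference was -4.27 points and did not pass (permutation p = 0.0673). T alone was detected in 79.5% and 81.4% of the cells, Nkx1-2 in 65.3% and 52.4%, and Sox2 in 17.6% and 21.7%. Cells of other types gave the background at the same depth: at day 4 both T and Sox2 were seen in 0.212% of Mature Somites cells (median 28007 UMIs) and in 0.522% of Early Posterior PSM cells, the posterior presomitic mesoderm that forms somites, but in 5.64% of Early Spinal Cord, 11.3% of Primitive Streak and 26.2% of NMPs.

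Genes that set Caudal Epiblast apart from the other cells of the same gastruloids were ranked by the mean difference in log2(CPM + 10), as a description. Of the 15 leading genes of day 3.5 and of day 4, 12 were shared: Cdx2, Crabp2, Evx1os, Fgf17, Fgf8, Grsf1, Hoxaas3, Hoxb8, Hoxb9, Hoxc8, Nkx1-2 and T. Fgf8 and Fgf17 encode FGF ligands, Crabp2 a binding protein of retinoic acid, and the 3 Hox genes belong to the trunk part of the clusters. Fgf8 averaged 357 CPM in Caudal Epiblast and 149 CPM in the other cells at day 3.5, and 516 against 94.6 CPM at day 4, higher in 15 of 15 gastruloids at both days. It was as high in single other types, with 421 CPM in Primitive Streak at day 3.5 and 526.4 CPM in NMPs at day 4. For T the values were 442 against 226 CPM and 436 against 78.8 CPM. The differences of T were thus 1.02 log2 units at day 3.5 and 2.47 at day 4, while the mean of T within the type was nearly the same at both days. Fst was in neither list. Hoxaas3, the leading gene at both days (427 against 131 CPM, then 784 against 142 CPM), is an antisense RNA of the Hoxa cluster, and reads of overlapping genes may have been shared with it.

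**Figure D2:**
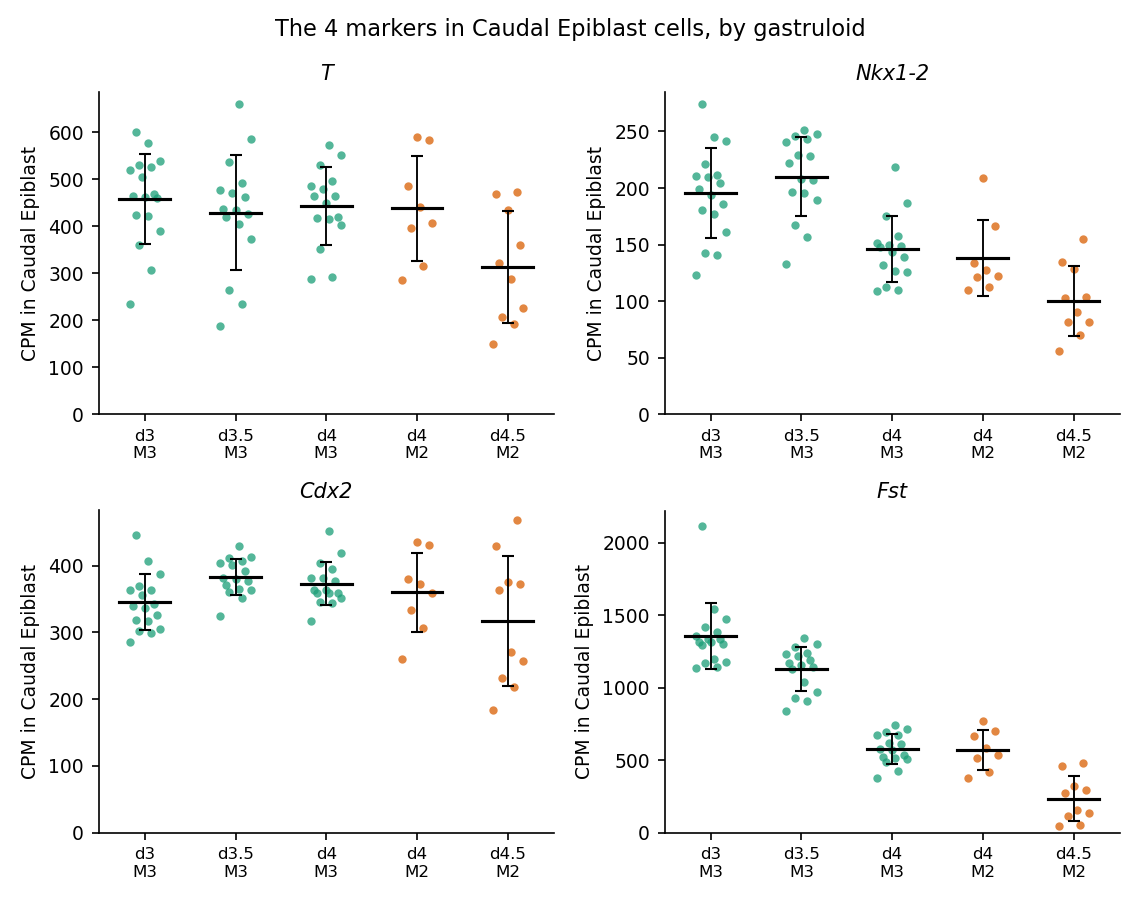
Level in Caudal Epiblast of the 4 markers (y axis, CPM) by day in MULTI-seq 3 (M3) and MULTI-seq 2 (M2), with d3 to d4.5 for days 3 to 4.5 (x axis). Each point is 1 gastruloid, and the black line and bar are the mean and SD. Fst lies lower at day 4 than at day 3.5 with no overlap in the tested gastruloids, whereas those of T and Cdx2 overlap.

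Within the type, gene levels of day 4 were compared with those of day 3.5 in MULTI-seq 3, where both days shared lanes. The fit took 15 gastruloids of each day with at least 10 Caudal Epiblast cells (11 to 118 cells). With edgeR's quasi-likelihood test and Benjamini-Hochberg adjustment, 945 of 8735 genes rose (10.8%) and 888 fell (10.2%) at an adjusted p under 0.05. Few changes were large: 41 genes rose and 14 fell by 2-fold or more. The filter on low counts also keeps genes whose level suffices in the gastruloids of a single day. Genes low at day 3.5 could thus enter through day 4, so counts and medians of the gene lists below are descriptions. Levels in this and the later tests are CPM scaled by the normalization factors of the fit, and fold changes are on the log2 scale. The days also differed in the neural share of a gastruloid's other cells (defined below). It was 0.581% to 86.7% at day 3.5, and at day 4 at most 3.90% apart from 79.4% and 82.4%. Within day 3.5, median slopes per 10 points of it were -0.125 (FGF ligands and receptors), -0.0557 (Notch) and -0.0467 (Hox). They were -0.0866 for presomitic and 0.0516 for neural genes, with only Sox2 called among these lists. Its part in the day changes was not tested.

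The 4 markers parted. Fst ran from 880 to 1343 CPM at day 3.5 (median 1172) and from 396 to 733 CPM at day 4 (median 580). The days did not overlap, and Fst fell by 0.92 log2 units (SE 0.08, adjusted p = 6.49e-09). Nkx1-2 ran from 140 to 248 CPM (median 223), then from 114 to 217 CPM (median 151). All 15 gastruloids of day 4 lay below the earlier median, and Nkx1-2 fell by 0.47 (SE 0.09, adjusted p = 0.000365). T had medians of 434 and 463 CPM and Cdx2 of 381 and 371 CPM, with log2 changes of -0.02 (SE 0.13) and -0.01 (SE 0.03), neither past the test (adjusted p = 0.962 and 0.999).

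Most FGF ligands tested were higher at day 4. Of the 6 FGF ligands and receptors tested (11 listed), 5 rose and 1 fell, with a median of 1.32 against 0.00517 over all genes tested. Fgf3 ran from 1.10 to 28.8 CPM at day 3.5 (median 12) and from 12.8 to 71.6 CPM at day 4 (median 42.4), a rise of 1.74 (SE 0.31, adjusted p = 0.000203). Fgf4, which is made in the streak, had a median of 11 CPM and then 55.9 CPM and rose by 1.72 (adjusted p = 0.0027). All 15 gastruloids of day 4 were above the earlier median for Fgf3 and 14 of 15 for Fgf4, though the ranges of the 2 days overlapped for both. Fgf17 ran from 19.1 to 122 CPM (median 39.3), then from 60.1 to 187 CPM (median 134), and rose by 1.31 (SE 0.21, adjusted p = 4.12e-05). Fgf8, the ligand by which the caudal end is often recognised, rose by 0.53 from a median of 347 to 509 CPM (adjusted p = 0.00323). Fgf15 rose by 1.33. The receptor gene Fgfr1 fell by 0.23 (83.3 to 71.4 CPM, adjusted p = 0.00808). Of 10 genes that respond to FGF, Spred2 rose, Dusp4 fell and 8 did not pass, with a median of 0.0979. These counts are near the 10.8% higher and 10.2% lower called over all genes.

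Wnt pathway genes changed in both directions. Among 9 tested Wnt ligands and receptors 5 rose (Rspo3, Wnt3a, Wnt5a, Fzd2 and Lrp6), while the receptor gene Fzd10 fell (median 0.19). Rspo3, a secreted enhancer of Wnt signalling, ran from 261 to 919 CPM (median 501), then from 471 to 1313 CPM (median 1002). In 14 of 15 gastruloids of day 4 it was above the earlier median, and it rose by 0.98 (SE 0.17, adjusted p = 0.000152). Wnt3a, the ligand tied to the upkeep of these progenitors, rose by 0.48 (35.3 to 49.9 CPM, adjusted p = 0.0157) and Wnt5a by 0.51 (50.5 to 74.5 CPM, adjusted p = 0.000841). Of 12 target and feedback genes 3 rose (Cited1, Tcf7l1 and Ccnd1), 1 of them by 2-fold or more. Another 3 fell, 0 of them by 2-fold: Notum by 0.59, Axin2 by 0.42 and Sp5 by 0.21 (median over the 12, -0.045).

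Hox genes rose widely. Of 39 listed genes 22 were tested, 11 rose and 1 fell (median 0.374). Hoxa7 rose by 1.05, Hoxd4 by 0.94, Hoxc6 by 0.92, Hoxc8 by 0.85 and Hoxb6 by 0.77. Hoxc8 ran from 14.3 to 158 CPM at day 3.5 (median 72.9) and from 98.9 to 233 CPM at day 4 (median 164), with all 15 gastruloids of day 4 above the earlier median (SE 0.18, adjusted p = 0.000938). Hoxb6 went from a median of 26.1 to 46.6 CPM (adjusted p = 6.46e-06). Hoxb8 and Hoxb9, with means of 223 and 176 CPM at day 3.5, did not pass (adjusted p = 0.0539 and 0.238).

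Genes of Notch signalling and of presomitic mesoderm were higher at day 4. Of 11 Notch genes 7 rose and 0 fell (median 0.533), and of 6 tested presomitic mesoderm and somite genes 5 rose and 0 fell (median 0.842), with Dll1, Dll3 and Hes7 in both lists. Tbx6, the factor that turns progenitors to paraxial mesoderm, ran from 1.22 to 43.4 CPM (median 15.0), then from 8.66 to 68.4 CPM (median 39.0), and rose by 1.30 (SE 0.31, adjusted p = 0.00322). Dll1, a Notch ligand, had medians of 31.6 and 110 CPM and rose by 1.31 (adjusted p = 0.00404). Hes7, the oscillator of the segmentation clock, rose by 0.68 (163 to 262 CPM, adjusted p = 0.000422). For each of these 3 genes 14 of 15 gastruloids of day 4 lay above the earlier median and the ranges overlapped. The 5 posterior PSM markers (Tbx6, Msgn1, Dll1, Dll3 and Hes7) summed to 161 to 482 CPM in the Caudal Epiblast of day 3.5 and 298 to 684 CPM at day 4, against 620 to 980 and 650 to 1130 CPM in Early Posterior PSM. Msgn1, the lowest of them, was near 1 CPM at both days (1.03 and 0.951). It was also the lowest of them in Early Posterior PSM, at 20 and 5.29 CPM. Whether cells of that type among the Caudal Epiblast add to these changes was not tested.

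Neural genes moved both ways: of 9 tested 4 rose and 3 fell (median 0.311). Irx3, a gene of the forming neural tube, rose by 1.52 from 7.46 to 23.1 CPM, Hes5, a Notch target of neural progenitors, by 1.45 from 14.0 to 40.0 CPM, and Ncam1 by 0.70. Sox2 rose by 0.39 (medians 40.5 and 50.0 CPM, adjusted p = 0.0415), while Zic5, Zic2 and Sox11 fell by 0.70, 0.63 and 0.31. The 5 neural markers (Sox1, Pax6, Irx3, Sox3 and Hes5) summed to 41.9 to 87.3 CPM at day 3.5 and 72.9 to 128 CPM at day 4, and Sox1 was 4.95 and 5.08 CPM. In Caudal Neurectoderm the sums overlapped these, with 53.5 to 133 CPM at day 3.5 and 105 to 123 CPM at day 4 (2 gastruloids). Sox1 was 20.5 and 25.3 CPM there, and Sox3 at day 4 averaged 52.8 CPM there against 33.5 CPM in Caudal Epiblast. Irx3, Hes5 and Pax6 went the other way at day 4. They averaged 9.26, 26 and 0.808 CPM in Caudal Neurectoderm against 22.6, 39.2 and 2.88 CPM in Caudal Epiblast. Aldh1a2, which makes retinoic acid, rose by 1.01 at a low level (7.24 to 14.5 CPM).

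Genes of pluripotency did not rise. Of 19 listed genes 7 were tested, 3 fell and 0 rose (median -0.154). Pou5f1, the core pluripotency factor that the epiblast still carries, ran from 195 to 423 CPM at day 3.5 (median 293) and from 82.9 to 192 CPM at day 4 (median 126). The days did not overlap, and Pou5f1 fell by 1.19 (SE 0.12, adjusted p = 9.5e-08). The fall was not particular to the type: unscaled means went from 302 to 129 CPM in Caudal Epiblast and from 174 to 58.5 CPM in Early Posterior PSM. It was smaller in Caudal Epiblast, by 0.496 log2 units in edgeR's test of type by day described below (adjusted p under 0.05). L1td1 fell by 0.99 and the DNA methyltransferase gene Dnmt3b by 0.50. Among 13 caudal progenitor factors 3 rose (Tbx6, Mnx1 and Sox2) and 4 fell (Cdx1, Nkx1-2, Evx1 and Sp5), with a median of -0.16. Cdx1 fell by 1.19 from a median of 45.5 to 15.3 CPM (SE 0.19, adjusted p = 4.86e-05), unlike its relative Cdx2.

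Of 10 genes linked to developmental timing 5 rose and 3 fell (median 0.0661). Lin28a, an inhibitor of let-7 microRNAs, fell by 0.23, Nr6a1, a nuclear receptor of the trunk, by 0.49 (188 to 130 CPM) and Peg3 by 0.27. Hmga2 rose by 0.53, Igf2 by 0.58, Gdf11, a ligand of the trunk-to-tail switch, by 0.46, Lin28b by 0.19 and Igf2bp3 by 0.17. Of 21 cell cycle genes 8 rose and 5 fell: Mki67, Top2a, Cdk1, Plk1, Cdc20 and Ccnb2, used late in the cycle, rose by 0.19 to 0.35, Ccnd1 and Ccnd2 rose by 0.13 and 0.30, while Mcm2, Mcm5, Mcm6, Ccne1 and Cdkn1a fell by 0.20 to 0.55. Among 12 adhesion and EMT genes 5 rose (Snai1, Krt8, Zeb1, Cdh2 and Itgb1) and Esrp1 fell, and among 16 glycolysis and hypoxia genes 5 rose and Eno1 fell. The 8 BMP genes and 5 Nodal and activin genes gave 1 and 2 rises and 0 and 1 falls, the latter being Fst.

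The largest changes outside these lists were those of Hoxb5os (1.67), Ptch1 (1.62) and Cgnl1 (1.47) upward, and of Pim2 (-2.18), Tex15 (-1.5), Bcat1 (-1.35), Dipk2a (-1.34), Rapgef5 (-1.27) and Nrp2 (-1.09) downward. Ptch1, the Hedgehog receptor and target, had a median of 23.8 CPM at day 3.5 and of 66.2 CPM at day 4, where it spread from 17.9 to 242 CPM. The summed endoderm markers spread likewise, from 4.76 to 15.2 CPM at day 3.5 and from 3.98 to 68.3 CPM at day 4. Among them only Foxa2 differed much on average, with 2.58 and then 13.3 CPM. Trh averaged 4.89 and 4.34 CPM, and Sox17, Cer1 and Foxa1 at most 0.623 CPM. Notochord markers (Noto, Shh, Chrd and Foxj1) summed to at most 6.18 CPM at day 3.5 and 23.0 CPM at day 4. Their part in the result was not tested. Pim2, a kinase gene of undifferentiated stem cells, fell from a median of 37.8 to 7.42 CPM, below the earlier median in 15 of 15 gastruloids. Hoxb5os is antisense to Hoxb5, which rose too (0.60), and their reads may not be separable. Anterior PSM and somite markers were low in the type, at 4.97 to 17.3 CPM summed at day 4 against 458 to 1123 CPM in Early Anterior PSM. Of the 4 germ cell markers Dppa3 was at 0 at both days. Tfap2c averaged 5.22 and 8.03 CPM, Prdm1 0.381 and 1.35 CPM and Nanos3 0.457 and 0.589 CPM. Their sum reached at most 11.4 CPM at day 3.5 and 36.6 CPM at day 4.

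**Figure D3:**
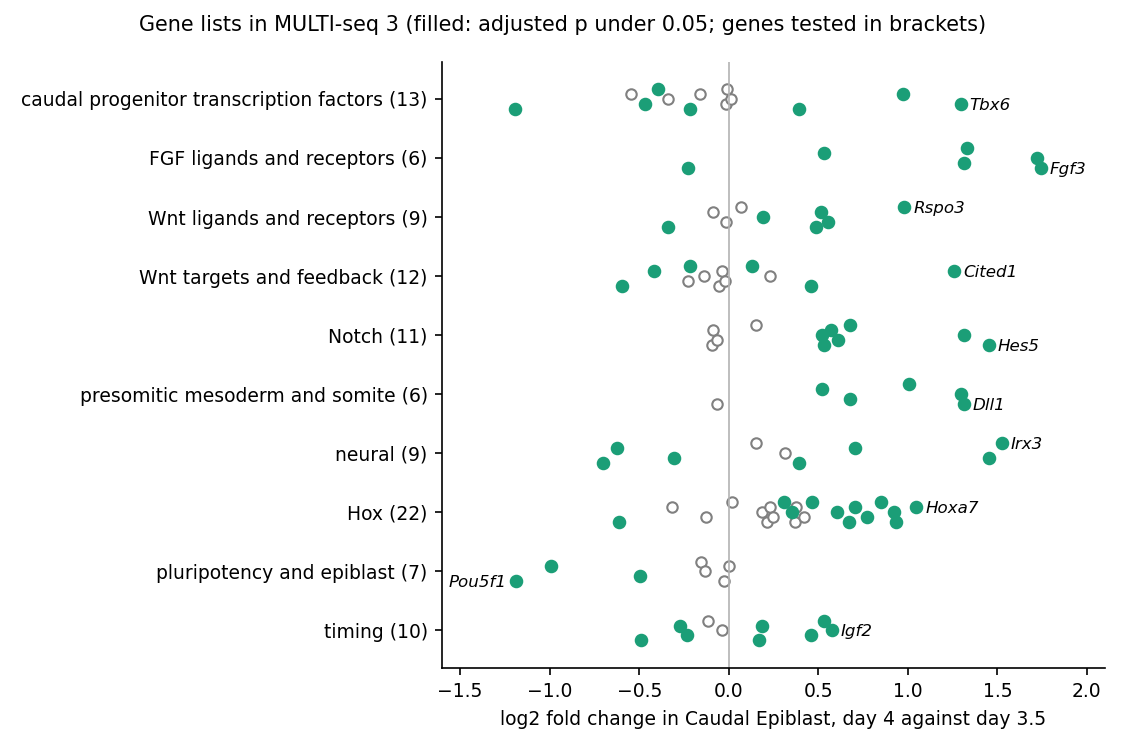
Fold change (log2, day 4 against day 3.5, MULTI-seq 3) of each tested gene of 10 lists in Caudal Epiblast. Each point is 1 gene, filled if its adjusted p is under 0.05, and the most changed gene of each list is named. Most FGF ligand, Hox, Notch and presomitic mesoderm genes lie to the right of 0, and the 3 filled points of the pluripotency list lie to the left.

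Only cells that also mapped to the embryo's caudal epiblast were then kept, which left 15 and 13 gastruloids. The test called 1094 genes in place of 1833, and 1004 of those calls were shared. Over all alternatives run, that one included, 11 to 13 Hox genes and 4 or 5 FGF genes rose. With mapped cells only, 1 caudal progenitor factor rose in place of 3, which were Tbx6, Mnx1 and Sox2. At most 1 of those 3 rises was thus called in mapped cells.

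Between day 3 and day 3.5 Hox and pluripotency genes differed in Caudal Epiblast as well, though a mean of 30.2% of a gastruloid's cells of the type at day 3 mapped to primitive streak, against 2.62% at day 3.5. Here 17 gastruloids of day 3 and 16 of day 3.5 with at least 5 Caudal Epiblast cells were fitted. Of 5756 genes 920 rose (16.0%) and 989 fell (17.2%). The days lay in different pools, so day and pool cannot be told apart, and the gastruloids of day 3.5 are shared with the comparison above. Pou5f1 ran from 536 to 975 CPM at day 3 (median 720) and from 202 to 434 CPM at day 3.5 (median 301). The days did not overlap, and Pou5f1 fell by 1.26 (SE 0.10, adjusted p = 5.06e-11). Of 6 pluripotency genes 5 fell and 0 rose (median -0.823), among them L1td1 (-1.69), Epcam (-1.07) and Dnmt3b (-0.57).

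Of 39 listed Hox genes 10 were tested, 8 rose and 0 fell (median 0.862, against 0.00688 over all genes). The filter of this and the other day tests also keeps genes whose level suffices in the gastruloids of a single day. Genes low at day 3, such as Hoxc8, could thus enter through day 3.5, so counts and medians of the lists are descriptions. Hoxc8 ran from 0 to 29.5 CPM at day 3 (median 11.3) and from 14.6 to 163 CPM at day 3.5 (median 74.3). The ranges overlapped at their ends, and Hoxc8 rose by 2.92 (SE 0.39, adjusted p = 6.96e-07). Hoxb6 rose by 1.98, Hoxb2 by 1.26, Hoxc6 by 1.13 and Hoxb9 by 0.91. Without lane A of the day 3 pool 6 gastruloids of day 3 remained, 783 genes were called in place of 1909 and 2 of the Hox genes passed. Without lane B, 9 gastruloids remained with 1027 genes and 5 Hox genes.

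Ligands also differed between these days. Of 8 Wnt ligands and receptors 4 rose and 0 fell (median 0.396): Wnt5b from a median of 8.70 to 34.3 CPM (1.69, SE 0.30, adjusted p = 5.58e-05), Rspo3 by 1.33, Wnt3a by 0.68 and Wnt5a by 0.55. Without lane A of day 3 1 of these passed, and without lane B 2. Fgf17 rose by 1.75 (adjusted p = 0.00105), a call lost without lane A of day 3 (2.00, adjusted p = 0.186), without lane B (1.58, adjusted p = 0.0998) and with mapped cells only (1.49, adjusted p = 0.0503). Fgf8 had medians of 284 and 353 CPM and did not pass (adjusted p = 0.0683). Among 8 timing genes 7 rose, led by Nr6a1 (1.24, medians 78.3 and 201 CPM) and Hmga2 (0.67), and Lin28a fell by 0.14. Of 6 tested Notch genes 4 rose and 0 fell, which became 1 without either lane of day 3. The largest changes outside the lists were Hoxaas3 (2.19), Limch1 (1.68) and Tmem132c (1.67) upward and Apela (-1.55), Pim2 (-1.41), Gng3 (-1.37), Igfbp2 (-1.19), Ckb (-1.18) and Car2 (-1.10) downward. The Pim2 call was lost without lane A or B of day 3 and with at least 10 cells (changes from -1.57 to -1.33, adjusted p from 0.0554 to 0.114), and that of Limch1 without lane B (adjusted p = 0.0533). Of the markers, Fst fell by 0.32 (medians 1393 and 1200 CPM, adjusted p = 0.000403) and Cdx2 rose by 0.12 (adjusted p = 0.0426), while T and Nkx1-2 did not pass (adjusted p = 0.522 and 0.742). The Cdx2 call was lost without lane A or lane B of day 3 (adjusted p = 0.41 and 0.0895), without lane A or lane B of the later pool (0.0931 and 0.0529) and with at least 10 cells (0.0507). In these settings, in the same order, Cdx2 changed by 0.104, 0.148, 0.101, 0.115 and 0.145. With mapped cells only, its change was 0.0234 (adjusted p = 0.826). The call of Fst was lost without lane A of day 3 (-0.206, adjusted p = 0.154).

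**Figure D4:**
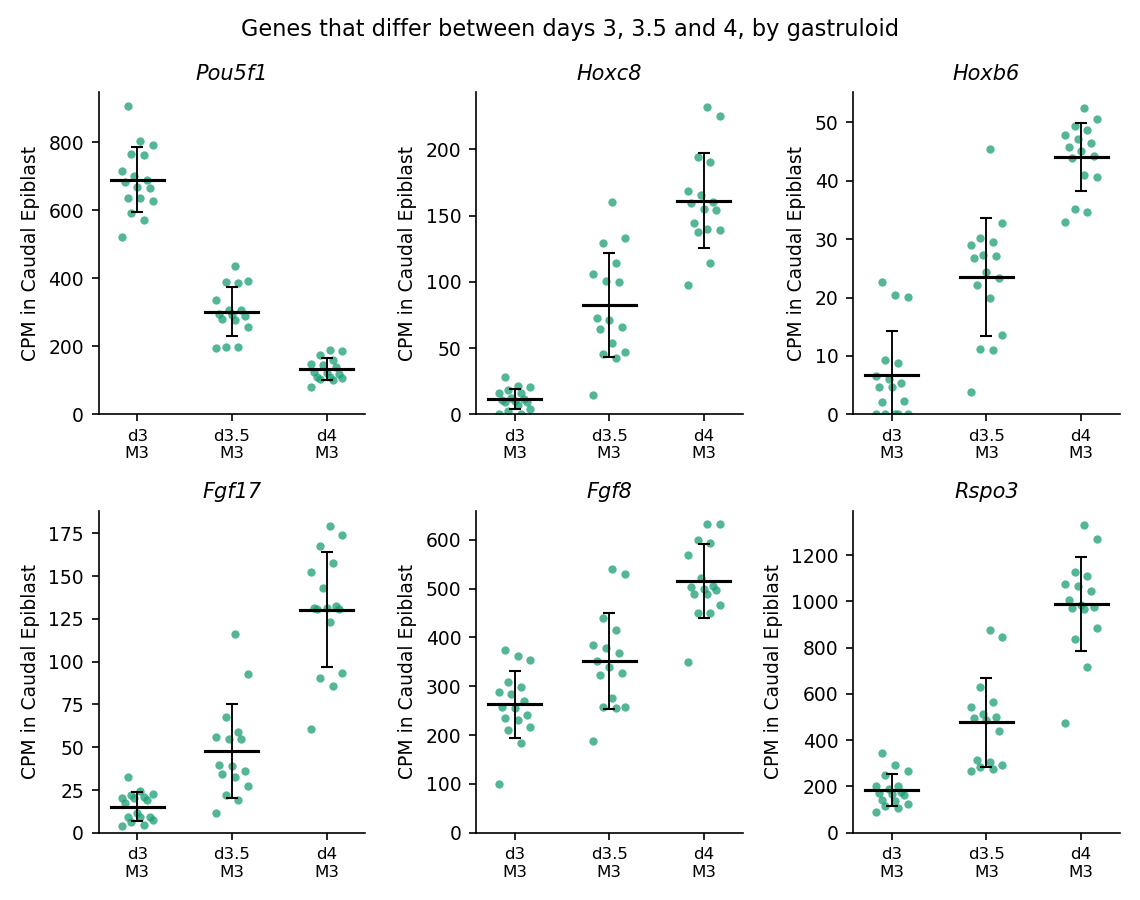
Levels of 6 genes (y axis, CPM) in Caudal Epiblast of MULTI-seq 3 (M3) by day (x axis, d3 to d4 for days 3 to 4). Each point is 1 gastruloid, and the black line and bar are the mean and SD. Pou5f1 is lower at each later day, whereas Hoxc8 and Fgf17 are higher.

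After day 4 few cells carried the name, and in MULTI-seq 3 their summed marker levels were lower. Summed over all called cells of MULTI-seq 3, Fst was 595 CPM at day 4 (675 cells), 97.0 CPM at day 4.5 (54 cells, exact Poisson interval 82.4 to 114) and 119 CPM at day 5 (11 cells, 83.6 to 164). T was 448, 242 and 173 CPM, Nkx1-2 was 154, 63.9 and 54.6 CPM, and Cdx2 was 379, 268 and 234 CPM at the same days. The 35 cells of day 5 in MULTI-seq 1 had 446 CPM of Cdx2 (380 to 519), 261 of T, 86.9 of Nkx1-2 and 38.0 of Fst. Days 4.5 and 5 came from another pool than day 4, the intervals cover counting error only, and no test was made. In MULTI-seq 2, where days 4 and 4.5 shared lanes, 8 gastruloids of day 4 and 10 of day 4.5 were fitted. Of 2873 genes 1 rose (0.0348%) and 0 fell (0.0%) by edgeR's quasi-likelihood test, while 267 had an unadjusted p under 0.05 and DESeq2 also called 1. The gene was H2afv, a histone variant gene (medians 739 and 983 CPM, 0.42, adjusted p = 0.00589), higher than the earlier median in 9 of 10 gastruloids. Without lane 2 its change was 0.38 with 4 against 3 gastruloids, and without lane 3 0.361 with 5 against 1, and neither fit passed (adjusted p = 0.673 and 0.628). Fst ran from 429 to 863 CPM at day 4 (median 630) and from 54.0 to 549 CPM at day 4.5 (median 243). Its change was -1.42 (SE 0.31), which did not pass (adjusted p = 0.0991), and T, Nkx1-2 and Cdx2 had changes of -0.45, -0.44 and -0.17 (adjusted p = 0.507, 0.327 and 0.842).

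At day 4 the 2 experiments could be set side by side. With 8 gastruloids of MULTI-seq 2 and 16 of MULTI-seq 3, 911 of 7537 genes were higher (12.1%) and 956 lower (12.7%) in MULTI-seq 3, whose gastruloids of day 4 are shared with the comparison of days. None of the 4 markers passed: medians in MULTI-seq 2 and 3 were 461 and 455 CPM for T, 136 and 144 for Nkx1-2, 393 and 358 for Cdx2, and 610 and 576 for Fst (edgeR, adjusted p = 0.547, 0.931, 0.333 and 0.39). The log2 differences were -0.14 (SE 0.15), -0.02 (SE 0.14), -0.09 (SE 0.06) and -0.16 (SE 0.12). The largest differences lay in mitochondrial genes and in genes such as Usf1 (3.75), Arf5 (3.45) and Pfn1 (3.16). For instance, mt-Atp6 ran from 11170 to 12520 CPM in MULTI-seq 2 and from 2469 to 3467 CPM in MULTI-seq 3 (-2.08). Without lane 2 of MULTI-seq 2 604 genes were called in place of 1867, and without its lane 3 1165. Experiment, library and depth cannot be told apart in this comparison.

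The next question was whether the change from day 3.5 to day 4 differed from that of Early Posterior PSM in the same gastruloids. A model of type by day with the gastruloid as a block, over 13 gastruloids of day 3.5 and 15 of day 4, found 744 of 9767 genes whose change was higher (7.62%) and 476 whose change was lower (4.87%) in Caudal Epiblast. Without lane A 810 genes were called in place of 1220. The genes with a lower change were 242 to 335 without 1 lane, fewest without lane A, and with at least 20 cells 298 had a lower one. Of 13 caudal progenitor factors 9 had a higher change and 0 a lower one (median 1.05, against -0.00887 over all genes). T averaged 459 CPM ± 107 (SD) in Caudal Epiblast at day 3.5 and 438 ± 81.6 at day 4, while in Early Posterior PSM it went from 261 to 71.1 CPM. The difference of changes was 1.74 for T (SE 0.30), 1.96 for Nkx1-2 and 1.44 for Cdx2. The cells were named by such markers at both days, so these 3 values, and the list that holds them, are a description. In Early Posterior PSM Nkx1-2 went from 28.1 to 5.97 CPM and Cdx2 from 57.7 to 22.1 CPM. Fst, the other marker, went from 1096 to 580 CPM in Caudal Epiblast and from 792 to 312 CPM in Early Posterior PSM, a difference of 0.38 that did not pass (adjusted p = 0.103).

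Genes of signalling pathways differed in both directions. Of 7 FGF ligands and receptors 4 had a higher change and 0 a lower one (median 1.45), and of 10 FGF target genes 5 and 0. Of 10 Wnt ligands and receptors 5 had a higher change and 2 a lower one (Fzd2 and Fzd7, both receptor genes), with a median of 0.443. Of 10 BMP genes 0 had a higher change and 3 a lower one (Id3, Id2 and Bmpr1a), with a median of -0.31. Fgf17 went from 53.8 to 134 CPM in Caudal Epiblast and from 18.5 to 5.02 CPM in Early Posterior PSM, a difference of 3.05 (SE 0.42, adjusted p = 1.68e-05). Wnt3a went from 36.5 to 49.1 CPM and from 18.9 to 3.08 CPM (2.87, adjusted p = 4.11e-05). Gastruloids spread widely in Early Posterior PSM at day 3.5, where unscaled Wnt3a ran from 5.42 to 35.5 CPM and T from 103 to 571 CPM. Igfbp3, a binding protein of insulin-like growth factors, went from 83.8 to 123 CPM and from 39.8 to 8.18 CPM (2.91). Dkk1 (2.87), Htra1 (2.75), Dlc1 (2.73), Dennd2c (2.68) and Sprr2a3 (2.49) completed the genes of largest positive difference. The Sprr2a3 call was lost without each of the 4 lanes in turn and with at least 20 cells (differences from 2.08 to 2.44, adjusted p from 0.0508 to 0.118). Dkk1 and Htra1 were near 5 CPM or below in Caudal Epiblast at both days, while in Early Posterior PSM they went from 20.4 to 3.62 and from 45.3 to 18 CPM.

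The 8 largest negative differences, among called genes with a mean of at least 20 CPM in 1 of the groups, were mostly in genes under 10 CPM in Caudal Epiblast at both days, so those differences rest on the levels in Early Posterior PSM. Mesp2, a factor of the somite border, went from 1.39 to 29.3 CPM in Early Posterior PSM and stayed at 0.707 and 0.869 CPM in Caudal Epiblast (-3.88, adjusted p = 0.000114). Meox1 (-3.71), Pcdh8 (-2.87), Tcf15 (-2.84), Anxa11 (-2.80), Tshz2 (-2.15), Mesp1 (-2.05) and Foxc2 (-2.03) followed. Of these, Anxa11 went from 20.15 to 10.8 CPM on average in Caudal Epiblast, and Mesp1 from 7.596 to 11.4 CPM. Of 12 presomitic mesoderm and somite genes, 3 had a higher change (Tbx6, Hes7 and Msgn1) and 5 a lower one, with a median of 0.0739. Msgn1 went from 20.7 to 5.31 CPM in Early Posterior PSM and lay near 1 CPM in Caudal Epiblast. Of 11 streak genes 6 had a higher and 1 a lower change (median 1.12); that list holds T and is a description as well. Of 25 Hox genes 4 had a higher and 2 a lower change (median 0.00837).

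**Figure D5:**
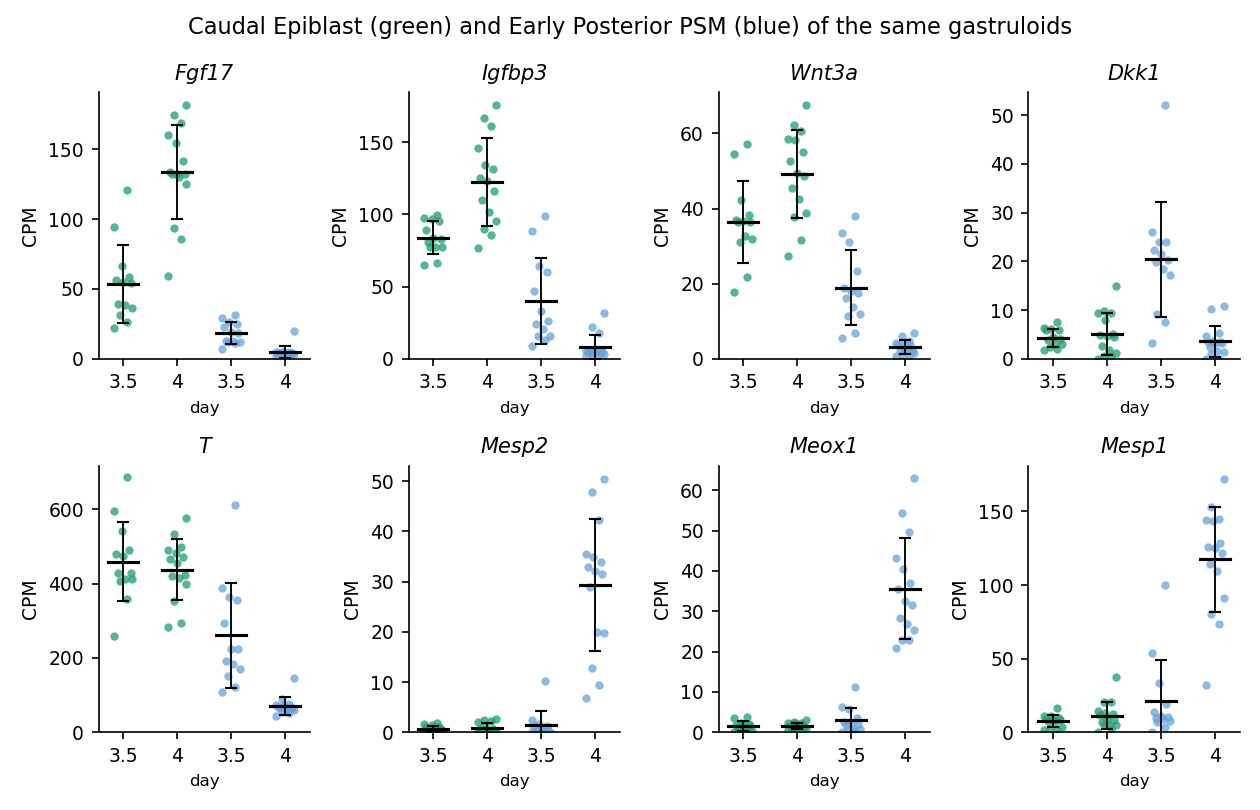
Levels of 8 genes (y axis, scaled CPM, linear) at days 3.5 and 4 (x axis) in Caudal Epiblast (green) and Early Posterior PSM (blue) of MULTI-seq 3, with 1 point per gastruloid and type and black lines and bars for mean and SD. At day 4 T averages 438 CPM in Caudal Epiblast and 71.1 CPM in Early Posterior PSM, and Mesp2 0.869 and 29.3 CPM.

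Gastruloids differed in how many of their other cells were neural (Early, Caudal and Late Neurectoderm, Early and Late Spinal Cord and Neurons), from 0.581% to 86.7% over 15 gastruloids at day 3.5. The level of 35 of 9514 genes in Caudal Epiblast rose with that share (0.368%) and that of 38 fell (0.399%) in edgeR's test of a slope. Among them Rgma (0.12 log2 units per 10 percentage points, adjusted p = 0.000177) and Psd3 (0.13, adjusted p = 0.000177) were higher and Cyb5a lower (-0.09, adjusted p = 2e-05) with a higher neural share. Sox2 (0.08, adjusted p = 0.0409), Wnt3a (-0.11, adjusted p = 0.0191) and Wnt5b (-0.11, adjusted p = 0.0039) passed as well, but these 3 calls were lost without the 2 gastruloids farthest from the median share (adjusted p = 0.155, 0.175 and 0.131), with slopes of 0.0814, -0.0963 and -0.0947, when 9 genes were called in all. The Sox2 call was also lost without each lane in turn (slopes 0.0758, 0.0391, 0.0806 and 0.052 without lanes A, B, C and D) and with at least 20 cells. That of Wnt3a was lost without lane A or B and with at least 20 cells. The genes Rgma, Psd3 and Cyb5a were chosen after their values were seen. At day 4 the neural share was 79.4% and 82.4% in 2 gastruloids and at most 3.90% in the other 13. The slope called 53 genes upward (0.552%) and 78 downward (0.813%) of 9599, and 0 without those 2, so that relation rests on them.

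Whether the share of Caudal Epiblast went with that of other types was asked over 81 pairs of a type and a day. A wide gap between gastruloids kept 7 pairs out, and 0 of the other 74 passed an adjusted p under 0.05 by r or rho (16 had an unadjusted p of r under 0.05). The pairs of day 4 in MULTI-seq 2, where the share formed 2 sets, are among them, and no coefficient is given. In the lanes without gastruloid calls the share could only be counted over all cells: it was 3.53% at day 3 (exact 95% interval 2.91% to 4.25%) and 7.25% at day 4 (6.26% to 8.36%) in the 10X experiment, and 7.83% (7.11% to 8.61%) in pool C of MULTI-seq 2, whose days could not be separated.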

How the data were processed

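Gastruloid cells were measured by droplet RNA sequencing (10x 3' v3.1). Per the submitters' processing notes, reads were processed with Cell Ranger 6.0.0, Seurat and the mm10 genome; the use of strand in counting is not stated there. The deposited matrices hold raw UMI counts per gene and cell, and the authors' deposited cell table gives cluster names, gastruloid calls and mapped embryo types. The members and gene lists were chosen with earlier results of these data known. Counts were summed over the Caudal Epiblast cells of each gastruloid and its lanes, keeping gastruloids with at least 30 cells in all for shares and at least 10 Caudal Epiblast cells for gene tests (5 for day 3.5 against day 3 and for MULTI-seq 2). Lanes were not replicates. Gene tests used edgeR 4.0.16 (limma 3.58.1, R 4.3.3) with TMM factors, filterByExpr, a robust quasi-likelihood fit and Benjamini-Hochberg adjustment, called at an adjusted p under 0.05, and were tested on simulated data. DESeq2 1.42.0 was an alternative. Shares were compared by permutation with 100000 resamples (Python 3.11.15, scipy 1.17.1, numpy 2.4.6, pandas 2.3.3). Named genes were the markers, list members and the 8 largest called changes each way with at least 20 CPM; type genes were the leading 15 with at least 50 CPM. The day 3 and 3.5 pools of MULTI-seq 2 were not analysed here. No doublet caller was run beyond the deposited barcode calls. Alternatives were other size factors, no filter, other cell minimums, cells mapped to caudal epiblast, other thinning depths and leaving out each lane. Gastruloids are separate aggregates of 1 cell line. Intervals cover counting error only. Results for some genes are not reported here.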

Additional observations from a re-analysis of the deposited data

Results flagged for a closer look

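In the comparison of experiments at day 4, Pfn1 in Caudal Epiblast reached 218 CPM in 1 gastruloid of MULTI-seq 2, when the next was at 154 and the lowest at 122 CPM, a gap beyond Dixon's 95% limit. It was the 1 such gap in 30 groups of values tested, and chance gives 1 in about 20.

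The change from day 3.5 to day 4 differed between Caudal Epiblast and Early Posterior PSM, by the test of type by day, for 19 named genes. It was higher in Caudal Epiblast for Fgf17 (3.05), Igfbp3 (2.91), Wnt3a (2.87), Dkk1 (2.87), Htra1 (2.75), Dlc1 (2.73), Dennd2c (2.68), Sprr2a3 (2.49), Nkx1-2 (1.96), T (1.74) and Cdx2 (1.44), in log2 units; the Sprr2a3 call was lost without each lane in turn and with at least 20 cells (adjusted p from 0.0508 to 0.118). T, Nkx1-2 and Cdx2 mark the named cells, so their values are a description. It was lower for Mesp2 (-3.88), Meox1 (-3.71), Pcdh8 (-2.87), Tcf15 (-2.84), Anxa11 (-2.80), Tshz2 (-2.15), Mesp1 (-2.05) and Foxc2 (-2.03).

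Caudal Epiblast cells were also present in lanes that no comparison used, as 3.53% of cells at day 3 and 7.25% at day 4 of the 10X experiment and 7.83% in pool C of MULTI-seq 2.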

How the results depend on the processing

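Between days, no paired analysis was possible because each gastruloid belongs to 1 day and lane numbers do not pair samples. The share of Caudal Epiblast in MULTI-seq 2 fell by 4.30 points with at least 100 cells per gastruloid (permutation p = 0.194). Joint detection of T and Sox2 differed by 2.05 points at 2000 UMIs and -2.14 unthinned. With cells mapped to caudal epiblast only, 1094 genes were called for day 4 against 3.5, 1162 for day 3.5 against 3 and 5 for MULTI-seq 2. MULTI-seq 2 gave 23 calls without the filter, 2 with at least 10 cells, and 0 to 18 without 1 lane; the 2 and the 18 compare 5 gastruloids with 1, assumed to vary like the others. Without 1 lane, day 3.5 against day 3 gave 783 to 1839 calls, MULTI-seq 3 against 2 gave 604 to 1824, and type by day gave 810 to 895. The slope on the neural share at day 3.5 gave 44 calls with at least 20 cells, 19 to 115 without 1 lane and 9 without the 2 farthest gastruloids; at day 4 it gave 38 to 105 and 0. Gene directions that turned were all of values that had not passed: Cdx2 for day 4 against 3.5 (0.0137 with mapped cells, -0.0332 to 0.00378 without 1 lane), MULTI-seq 2 with at least 10 cells, 5 gastruloids against 1 (Cdx2 0.0205, Nkx1-2 0.114) and without 1 lane, 4 against 3 or 5 against 1 (Cdx2 -0.671 to 0.151, T -0.829 to 0.303), Nkx1-2 for day 3.5 against 3 (-0.0507 with at least 10 cells, -0.00429 to 0.0615 without 1 lane), and Nkx1-2 between experiments (0.0218 without the filter, -0.131 to 0.133 without 1 lane). Apart from the settings' own loss of gastruloids or genes, the cause was not tested. Without the filter the median of all genes was 0.184 for day 3.5 against day 3 and 68.0% of calls were higher, against 48.2% with it. NMPs as the other type were not run. Few cells per gastruloid limit days 3, 4.5 and 5.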
